A study of Mus musculus with 2 samples.

Results

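The prostaglandin pathway genes Ptgs1, Ptgs2, Ptges, Ptger2, Ptger4 and Hpgd were followed through single cells of mouse hepatoma grafts. They were chosen by gene symbol for their roles in making, sensing and breaking down prostaglandin E2, and all 6 were found among the 18685 genes of the expression matrix. The tumours were grafts of Hep1-6, a mouse hepatoma cell line, in wild type male C57BL/6 mice aged 6 to 8 weeks, kept specific pathogen free on a normal diet. Mice received intraperitoneal IgG or an antibody against SIGLEC15, with 3 mice per group in the design and 1 library per group. Cells enriched with CD45 beads, which pick up leukocytes, were mixed in equal parts with unsorted tumour cells, so the shares of cell types were set in part by the loading. For the IgG library none of the 6 genes had a complete row to analyse here, so every level below comes from the library of antibody-treated tumours and no effect of treatment is given. That library stands for its group without a replicate, and it mixes host cells with grafted cells of 1 line.

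Prostaglandin E2 is a lipid signal made from arachidonic acid, a fatty acid that phospholipases free from membranes. The cyclooxygenases, encoded by Ptgs1 (largely constitutive) and Ptgs2 (COX-2, strongly induced in inflammation), turn it into prostaglandin H2. Terminal synthases then make each prostanoid, and microsomal prostaglandin E synthase, encoded by Ptges, makes prostaglandin E2. The receptors encoded by Ptger2 and Ptger4 raise cyclic AMP in the cells that bear them, and 15-hydroxyprostaglandin dehydrogenase, encoded by Hpgd, inactivates the product. In tumours this lipid is known for acting on myeloid cells, T cells and blood vessels.

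The library held 5482 cells and 74168827 UMIs (unique molecular identifiers, 1 for each captured transcript), from 553 to 46558 per cell. The authors' annotation puts the cells in 30 clusters, of which 26 hold at least 50 cells and 11 are named as tumour. Levels are UMIs of a gene per 1000000 UMIs of all genes (CPM), summed over the cells of a cluster. The ranges in brackets are exact 95% intervals that cover counting error only, not differences between mice. Clusters MDSC_1 to MDSC_4 are called neutrophil-like here, since their summed level of 8 neutrophil markers, among them S100a8 and S100a9, ran from 26230 to 145300 CPM and no tumour cluster exceeded 22.97 CPM. Fibroblast&Endothelial_1 carried all 5 fibroblast markers (22610 CPM in sum) and an endothelial sum of 0.89 CPM, while Fibroblast&Endothelial_2 also held endothelial (741 CPM), pericyte (1445 CPM) and hepatoma markers (4012 CPM). The cluster named DC had 130.5 CPM of 7 dendritic cell markers beside 3074 CPM of 6 monocyte and 2254 CPM of 7 macrophage markers. It is cited by its deposited name. The 2 libraries shared 11 cell barcodes.

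The promoters of the inducible cyclooxygenase and of the E synthase are shown because these genes had their main source of transcripts in different cells. Each line gives the 250 bases before the RefSeq gene start on the gene's strand, in build GRCm38.p6, with motif matches in capitals. Ptgs2 is at chr1:150099781-150100030 on the plus strand, and Ptges is at chr2:30903298-30903547 on the minus strand.
Ptgs2: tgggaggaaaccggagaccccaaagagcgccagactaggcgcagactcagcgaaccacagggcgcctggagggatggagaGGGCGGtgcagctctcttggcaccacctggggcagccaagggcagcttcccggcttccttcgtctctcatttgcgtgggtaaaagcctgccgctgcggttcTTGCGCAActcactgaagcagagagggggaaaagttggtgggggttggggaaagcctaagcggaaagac
Ptges: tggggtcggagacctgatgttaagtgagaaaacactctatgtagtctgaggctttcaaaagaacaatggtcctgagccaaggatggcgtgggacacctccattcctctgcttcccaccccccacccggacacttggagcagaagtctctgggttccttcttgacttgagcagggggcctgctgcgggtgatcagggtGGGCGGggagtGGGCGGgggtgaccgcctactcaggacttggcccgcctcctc
The Ptgs2 window held 1 GC box (GGGCGG), found in 32.7% of 32851 promoter windows of this length. It also held 1 C/EBP motif (TTGCNNAA, here TTGCGCAA, which reads the same way on both strands), found in 9.56% of windows. The Ptges window held 2 GC boxes and no C/EBP motif. Both strands were searched, and the 2 windows had no match to TGACG (in 17.8% of windows), CACGTG (6.02%), TGANTCA (6.75%), TATAAA (12.4%) or the NF-kB consensus (7.25%). The search covered only the 250 bases before each RefSeq start, so motifs past the start or farther upstream were not counted. The capitals mark letters, not measured binding.

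Ptgs2 transcripts lay mainly in the neutrophil-like cells. These 707 cells held 1.14% of the library's UMIs and 1438 of the 2272 Ptgs2 UMIs (63.3%). Their level was 1695 CPM (1609 to 1785), against 73.07 CPM in the other non-tumour cells, a ratio of 23.2 (21.3 to 25.3). The level was 8.82 times that of Fibroblast&Endothelial_1 (7.64 to 10.2), 10.5 times that of the DC cluster and 20 times that of macrophages, and tumour cells held 45 UMIs, or 0.720 CPM (0.525 to 0.963).

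**Figure D1:**
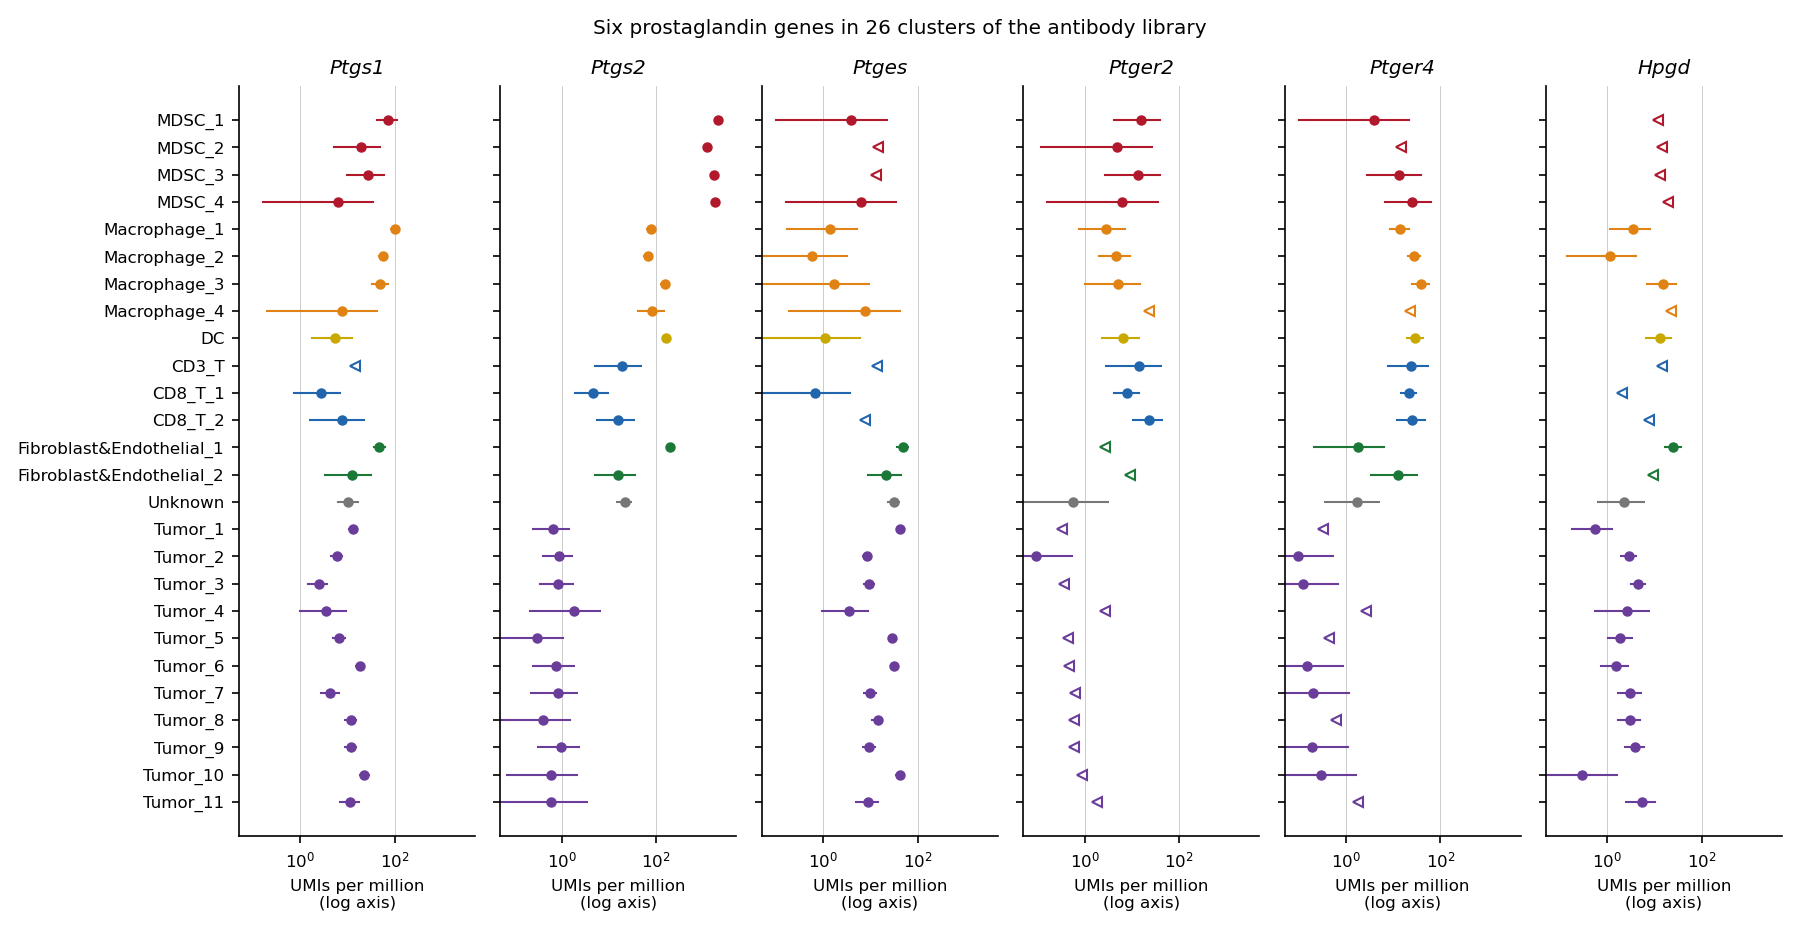
Level of each gene (CPM, log axis) in the 26 clusters of at least 50 cells of the antibody library. Points are levels with exact 95% Poisson intervals, and open triangles stand at the level that 3 UMIs would give where a cluster has none. Ptgs2 stood above 1000 CPM in MDSC_1 to MDSC_4 and below 2 CPM in the 11 tumour clusters.

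The 4 neutrophil-like clusters were not equal. Ptgs2 was 2047 CPM (1875 to 2231) in MDSC_1, 1794 CPM (1592 to 2015) in MDSC_4 and 1674 CPM (1509 to 1851) in MDSC_3. It was 1216 CPM (1072 to 1375) in MDSC_2, whose interval lay below the other 3. MDSC_2 was also the cluster with the most S100a9, at 84950 CPM against 12510 CPM in MDSC_1. The ratio of MDSC_1 to MDSC_2 was 1.68 (1.45 to 1.96), while MDSC_4 and MDSC_3 had overlapping intervals.

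Most neutrophil-like cells carried the transcript despite their low depth. At a median of 1047 UMIs per cell, 446 of 707 (63.1%, exact Clopper-Pearson interval 59.4 to 66.7) had at least 1 Ptgs2 UMI, and 15 was the highest count in a cell. Of these cells, 140 had 1 UMI, 93 had 2 and 76 had 3. Tumour cells, with a median of 20428 UMIs, had a Ptgs2 UMI in 1.37% (0.997 to 1.83), given here as a background share. When cells were thinned to 1000 UMIs, leaving out 302 shallower neutrophil-like and 38 tumour cells, the shares were 60.4% and 0.0763%. Across tertiles of depth within the neutrophil-like cells the level was 1819, 1813 and 1564 CPM.

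Outside the neutrophil-like cells the highest level was in the fibroblast cluster. Fibroblast&Endothelial_1 had 216 Ptgs2 UMIs, or 192 CPM (167 to 220), in 41 of its 96 cells. All 96 had fewer than 5 UMIs of S100a8 and S100a9 together. The transcript was uneven among them: 5 cells held 44.4% of the UMIs, and 1 held 27. Fibroblast&Endothelial_2 had 5 UMIs, or 15.5 CPM (5.03 to 36.2), and the ratio of the first to the second was 12.4 (5.23 to 38.6).

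The DC cluster stood at 162 CPM (137 to 190), Macrophage_3 at 154.5 CPM (124.5 to 189.5), Macrophage_1 at 76.6 CPM (62.9 to 92.4) and Macrophage_2 at 67.99 CPM (56.3 to 81.4). The first 2 overlapped each other and the fibroblast cluster, while Macrophage_3 was 2.27 times Macrophage_2 (1.71 to 3.01). Macrophage_4, a shallow cluster, had 83.1 CPM (41.5 to 149) from 11 UMIs. Neutrophil transcripts were also present in these clusters. The summed neutrophil markers were 4100 CPM in DC, 4255 CPM in Macrophage_3, 1066 CPM in Macrophage_2 and 551 CPM in Macrophage_1, with 7 or 8 of 8 markers detected. In cells with fewer than 5 UMIs of S100a8 and S100a9, Ptgs2 was 85.1 CPM (65.6 to 109) in DC, 135 CPM (102 to 175) in Macrophage_3, 62.1 CPM in Macrophage_1 and 61.4 CPM in Macrophage_2. In the Unknown cluster, at 21.3 CPM, the 18 cells with a Ptgs2 UMI had a median of 16.5 such UMIs against 0 in the other 77, and the level in cells with fewer than 5 was 6.61 CPM (2.85 to 13.0). Neutrophil-like cells also occur below that number and kept their Ptgs2, at 1987 CPM in 74 cells of MDSC_1 and 1824 CPM in 48 cells of MDSC_3. The values therefore do not give the neutrophil part of the level in the other clusters, which was not tested. T cells had 13 UMIs, or 6.35 CPM (3.38 to 10.9).

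Genes known to be induced together with Ptgs2 were high in the same class. Of 11 listed, 9 were at least 2-fold higher in neutrophil-like than in other non-tumour cells and 1 was at least 2-fold lower, while 10.9% of 10592 genes were higher and 49.7% lower by this rule. The list's median log2 ratio was 3.25, against −0.90 over all genes. The cytokine gene Il1b stood at 12580 CPM, a ratio of 40.8, and the chemokine gene Cxcl2 at 16240 CPM, a ratio of 41.75. Nfkbia, which encodes an NF-kB inhibitor, was at 3894 CPM (ratio 12.6), the transcription factor gene Cebpb at 3573 CPM (9.41) and Tnf at 381 CPM (16.3). The gene counted as lower was the cytokine gene Il6, with 0 UMIs in neutrophil-like cells (which allows up to 3.54 CPM) and 51.6 CPM (39.2 to 66.7) in Fibroblast&Endothelial_1. Among single neutrophil-like cells thinned to 1000 UMIs, Il1b was found in 96.3% (93.1 to 98.3) of 243 cells with Ptgs2 and in 96.9% (92.9 to 99.0) of 162 cells without it. With Il1b in nearly every cell, presence cannot show whether its level differs between these cells.

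The genes closest to Ptgs2 in pattern were Il13ra1 (r = 0.979), Oasl2 (0.978), Egr3 (0.976), Emilin2 (0.974) and Inhba (0.968). Likeness is Pearson's r of log2(CPM + 20) over the 26 clusters, among 8449 genes. These clusters share 1 library and differ in depth, so r is a description. Over the 15 non-tumour clusters the nearest genes were others, led by Nfkbiz (0.979), Cd44 (0.979) and Dusp1 (0.978), and with Spearman's correlation 0 of the 5 were shared.

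**Figure D2:**
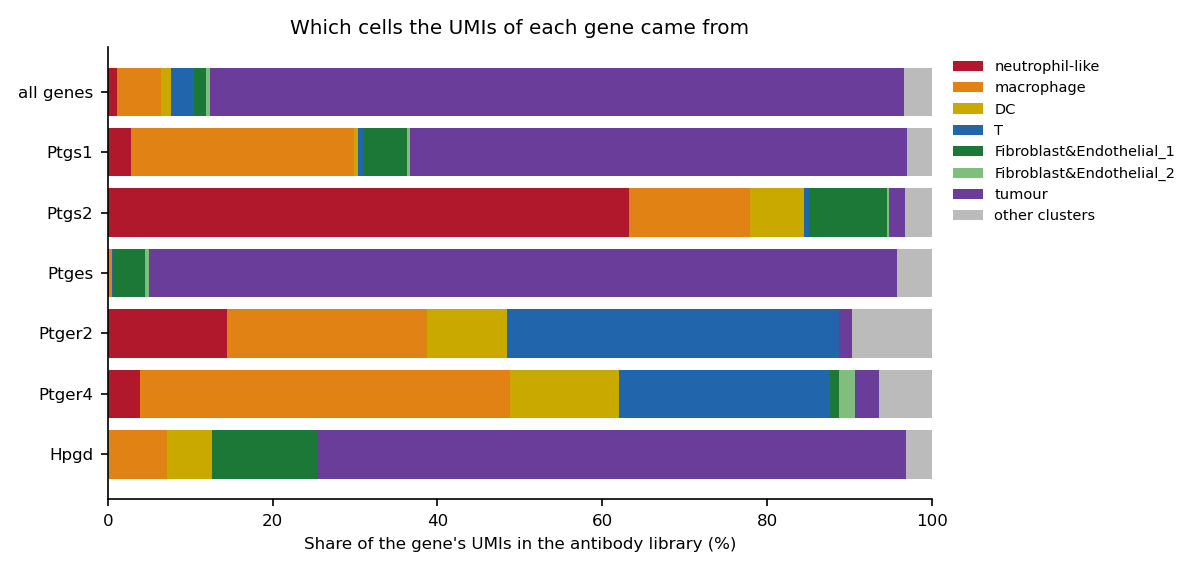
Share of each gene's UMIs (%, horizontal axis) that came from each class of cells in the antibody library, with the share of all genes' UMIs in the top bar. Tumour cells held 84.3% of all UMIs, 90.7% of Ptges and 1.98% of Ptgs2, and neutrophil-like cells held 63.3% of Ptgs2.

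The constitutive cyclooxygenase gene Ptgs1 was highest in macrophages. Its level was 69.7 CPM (61.7 to 78.5) in the 532 macrophages and 16.65 CPM in other non-tumour cells, a ratio of 4.19 (3.38 to 5.21). Macrophage_1 led with 99.8 CPM (84.1 to 118), in 68 of 178 cells at a median of 7870.5 UMIs, beside 4 of 208 cells of the DC cluster at 3796. It was 1.75 times Macrophage_2 (1.34 to 2.28) and 2.05 times Macrophage_3 (1.37 to 3.17), and the latter pair, at 57.1 and 48.7 CPM, overlapped. Macrophage_4, the shallow cluster, had 1 UMI, or 7.56 CPM (0.191 to 42.1), below the intervals of Macrophage_1 and Macrophage_2. MDSC_1 had 70.9 CPM (42.0 to 112) from 18 UMIs, 3.71 times MDSC_2 (1.22 to 15.1). The fibroblast cluster had 47.2 CPM (35.3 to 61.7), while DC (5.39 CPM, 1.75 to 12.6) and T cells (3.42 CPM, 1.37 to 7.04) were low.

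Platelets are rich in Ptgs1, so their markers were read beside it. Of the 5 platelet markers, Pf4, which macrophages also express, made up nearly all of the sum in Macrophage_1 (355 of 356 CPM). In MDSC_1 it was the single one detected, at 31.5 CPM, and Ppbp, Itga2b, Gp9 and Gp1bb were at 0. In Macrophage_3 Pf4 was 2198 of 2205 CPM. The part of platelets in the Ptgs1 level was not tested.

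Tumour cells had Ptgs1 at a lower level, 9.72 CPM (8.97 to 10.5), but with 608 UMIs they held 60.3% of the gene's UMIs. Among the 11 tumour clusters it ran from 2.42 CPM (1.48 to 3.73) in Tumor_3 to 22.7 CPM (17.9 to 28.3) in Tumor_10, with 18.5 CPM (15.3 to 22.1) in Tumor_6 and 13.2 CPM (10.9 to 15.7) in Tumor_1. The ratio of Tumor_1 to Tumor_3 was 5.45 (3.38 to 9.24). The genes nearest to Ptgs1 over the 26 clusters were Rit1 (r = 0.817), Sh3glb1 (0.772), Lrp12 (0.751), Tcn2 (0.725) and Plbd2 (0.725), of which 3 were shared with Spearman's correlation and 4 over the non-tumour clusters.

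Ptges had its transcripts in tumour cells and fibroblasts and hardly any in leukocytes. Tumour cells held 1291 of 1423 UMIs (90.7%), at 20.65 CPM (19.5 to 21.8), and the level was 1.82 times that of all non-tumour cells (1.52 to 2.20). Fibroblast&Endothelial_1 had 48.9 CPM (36.9 to 63.7), in 36 of 96 cells. Fibroblast&Endothelial_2, with its hepatoma transcripts, had 21.7 CPM (8.73 to 44.7), and the Unknown cluster, whose hepatoma markers summed to 8051 CPM, had 31.6 CPM (23.8 to 41.2). The 2022 immune cells held 15 UMIs, or 1.78 CPM (0.995 to 2.93). Immune cells are all those outside the Tumor, Fibroblast&Endothelial, Unknown and Adipocyte clusters. They include MDSC_5, whose hepatoma markers summed to 5985 CPM, and the part of tumour RNA in the immune level was not tested. A Ptges UMI was found in 25.6% of tumour cells and in 0.692% of immune cells, at median depths of 20428 and 2142 UMIs, and after thinning to 1000 UMIs in 1.97% and 0.190%.

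The neutrophil-like cells, which led in Ptgs2, had 2 Ptges UMIs, or 2.36 CPM (0.286 to 8.52). Hepatoma markers were also present, at 835 to 899 CPM in MDSC_1 to MDSC_4 against 5088 CPM in Tumor_4 to 23230 CPM in Tumor_11 among the tumour clusters. Whether these 2 UMIs came from tumour RNA was not tested. Of 243 neutrophil-like cells with Ptgs2 after thinning to 1000 UMIs, 1 had a Ptges UMI.

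Within the tumour the level of Ptges split the clusters. Tumor_1 stood at 43.2 CPM (39.0 to 47.7), Tumor_10 at 42.1 CPM (35.6 to 49.6), Tumor_6 at 31.7 CPM (27.6 to 36.3) and Tumor_5 at 28.1 CPM (24.2 to 32.3). The other 7 lay between 3.53 CPM in Tumor_4 and 14.15 CPM (11.03 to 17.9) in Tumor_8, and none of their intervals reached those of the upper 4. Tumor_1 and Tumor_10 did not differ beyond counting error (ratio 1.02, 0.845 to 1.25), while Tumor_1 was 5.09 times Tumor_2 (4.04 to 6.49). In Tumor_1, 232 of 460 cells had a UMI, against 59 of 500 in Tumor_2, at median depths of 18449 and 21330.5 UMIs. Tumor_4 was shallow, with a median of 2483 UMIs, and its level rests on 4 UMIs.

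**Figure D3:**
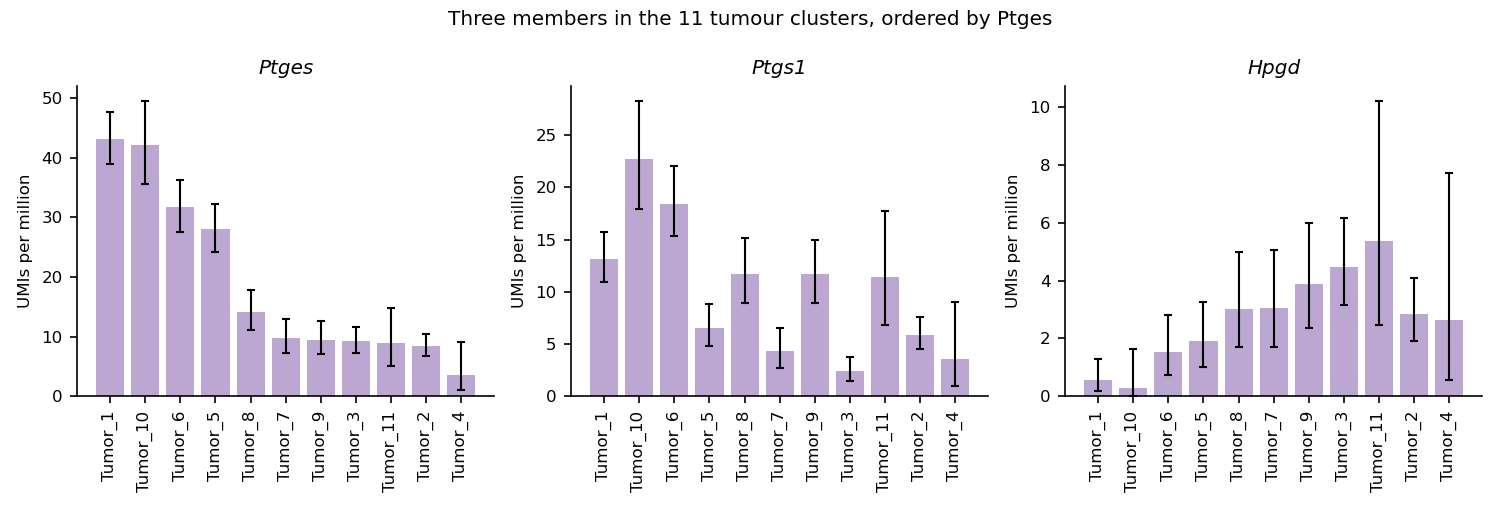
Levels of Ptges, Ptgs1 and Hpgd (CPM, linear axes from 0) in the 11 tumour clusters, ordered by Ptges. Bars are levels and lines are exact 95% Poisson intervals. Hpgd was 0.55 and 0.29 CPM in Tumor_1 and Tumor_10, which had the highest Ptges.

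Hpgd ran the other way across the tumour clusters. It was 0.55 CPM (0.178 to 1.28) in Tumor_1 and 0.29 CPM (0.00736 to 1.62) in Tumor_10, against 4.47 CPM (3.15 to 6.16) in Tumor_3 and 5.39 CPM (2.46 to 10.2) in Tumor_11. Tumor_1 had 0.123 times the level of Tumor_3 (0.0376 to 0.313). Over the 11 clusters Pearson's r of the levels of Ptges and Hpgd, in CPM without a log, was −0.842 (Spearman's rho −0.664). Pearson's r was −0.641 without the 2 clusters farthest from the median of Ptges. Ptges and Ptgs1 had an r of 0.729 (rho 0.764), and 0.584 without those clusters. The clusters came from the expression of the same cells of 1 library, so these values are descriptions.

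In single tumour cells thinned to 10000 UMIs, Ptgs1 was found in 10.5% (7.81 to 13.6) of 459 cells with Ptges and in 6.48% (5.51 to 7.56) of 2315 cells without it. Within Tumor_1 alone the shares were 10.1% (5.48 to 16.6) and 10.6% (7.30 to 14.7), so the difference was not seen inside that cluster. This thinning depth and the comparison inside Tumor_1 were chosen after values had been seen.

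Over the 26 clusters genes among the 5 nearest to Ptges were Plat (r = 0.922), Ltbp3 (0.922), Tshz2 (0.901) and Vldlr (0.887). Of the 5, 1 was shared with Spearman's correlation and 1 over the non-tumour clusters. Over the 11 tumour clusters alone, a setting added after the data had been seen, they were Pfkl (0.983), which encodes a phosphofructokinase, Bnip3l (0.976), Cmip (0.975), Egln3 (0.974), which encodes a prolyl hydroxylase, and Vegfa (0.973), which encodes a vascular growth factor. In the same setting Hpgd was nearest to Lamtor4 (0.962), Amacr (0.957) and Lhpp (0.956).

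The terminal prostanoid synthases, a list that includes Ptges, were divided among the cell types. In neutrophil-like cells 0 of 9 measured synthases were at least 2-fold higher and 8, Ptges among them, were at least 2-fold lower. The Ptges ratio rests on 2 UMIs, with an interval of 0.0235 to 0.722 that does not exclude a difference smaller than 2-fold. Ptges3, a broadly expressed cochaperone, was the ninth at 0.538 times. The median log2 ratio was −2.04, or −2.35 without the 0.5 UMI added to each sum and with sums of 0 set to 3 UMIs. Of all genes 10.9% were higher and 49.7% lower in this class, with a median of −0.90. In macrophages 3 of 9 were higher and 2 lower (median 0.04), where 8.16% of genes were higher and 14.7% lower (median −0.07). The 3 were Hpgds, the haematopoietic prostaglandin D synthase, at 62.0 CPM (ratio 13.7), Tbxas1, the thromboxane synthase, at 89.0 CPM (7.74), and Cbr2, a carbonyl reductase, at 68.7 CPM (59.1). Cbr2 lay largely in Macrophage_3, at 374.5 CPM (327 to 427) against 0.703 CPM in Macrophage_1, whereas Hpgds was 89.3 CPM in Macrophage_1 and 45.3 CPM in Macrophage_3.

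Ptgis, which encodes the prostacyclin synthase, marked the fibroblast cluster at 248 CPM (220 to 279), with 40.3 CPM in Fibroblast&Endothelial_2 and 2 UMIs in all 532 macrophages. Over the 2 fibroblast and endothelial clusters together, called stroma here, Ptges and Ptgis were the 2 of 9 synthases that were higher, and 3 were lower (14.2% and 20.9% of all genes, and medians of −0.25 for the list and −0.15 for all genes). In the fibroblast cluster, cells with Ptgs2 after thinning to 3000 UMIs had Ptgis in 5 of 21 and Il6 in 7 of 21, and cells without it had Ptgis in 30 of 75 and Il6 in 8 of 75. The intervals overlapped for both genes. In tumour cells Akr1b3, an aldo-keto reductase, was the 1 of 9 that was higher, at 363 CPM (ratio 2.19), and 4 were lower (13.0% and 25.2% of all genes, and medians of 0.40 and −0.17).

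Genes listed under the release of arachidonic acid were counted in the same way. The list is broad and also holds Pla2g7, the platelet-activating factor hydrolase, so its counts are not counts of this release alone. In macrophages 5 of 9 measured genes were higher and 1 lower (median log2 ratio 1.54), beside 8.16% and 14.7% of all genes (median −0.07). The 5 were Pla2g4a, the cytosolic phospholipase A2, at 49.0 CPM (ratio 3.36), Pla2g7 at 288 CPM (2.91), Daglb at 64.1 CPM (5.12), Pla2g15 at 55.6 CPM (4.44) and Pla2g2d at 36.9 CPM (40.85). In neutrophil-like cells 1 of 9 was higher and 5 were lower (median −1.98), where 10.9% of all genes were higher and 49.7% lower (median −0.90), so the share of lower genes lay near that of all genes. The higher gene was Pla2g7, at 556 CPM (4.23), while Pla2g4a was 29.5 CPM (19.1 to 43.5), near the 25.8 CPM of the other non-tumour cells. Pla2g4a was almost absent from tumour cells, with 6 UMIs or 0.096 CPM (0.0352 to 0.209). Mgll, the monoacylglycerol lipase, was the 1 of 9 that was higher in stroma, at 87.8 CPM (6.74), and 4 were lower, beside 14.2% and 20.9% of all genes.

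In the leukotriene branch, which uses the same fatty acid, neutrophil-like cells had 4 of 7 measured genes higher and 3 lower, with a median log2 ratio of 2.61, beside 10.9% and 49.7% of all genes (median −0.90). Alox5, which encodes 5-lipoxygenase, was 54.2 CPM (ratio 20.9), its activating protein gene Alox5ap 615 CPM (6.36), Ltc4s 66.0 CPM (6.09) and the leukotriene B4 receptor gene Ltb4r1 181.5 CPM (11.6). Lta4h, the leukotriene A4 hydrolase, was lower at 15.3 CPM (0.347). The DC cluster also had 4 of 7 higher, and 1 lower (median 1.35), beside 4.18% and 22.9% of all genes (median −0.19), with Alox5ap at 466 CPM (4.40), Ltb4r1 at 85.2 CPM (3.74) and Lta4h at 94.9 CPM (2.53). In tumour cells 7 of 7 were lower, beside 25.2% of all genes, with a median of −7.32, or −7.63 without the 0.5 UMI added to each sum.

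**Figure D4:**
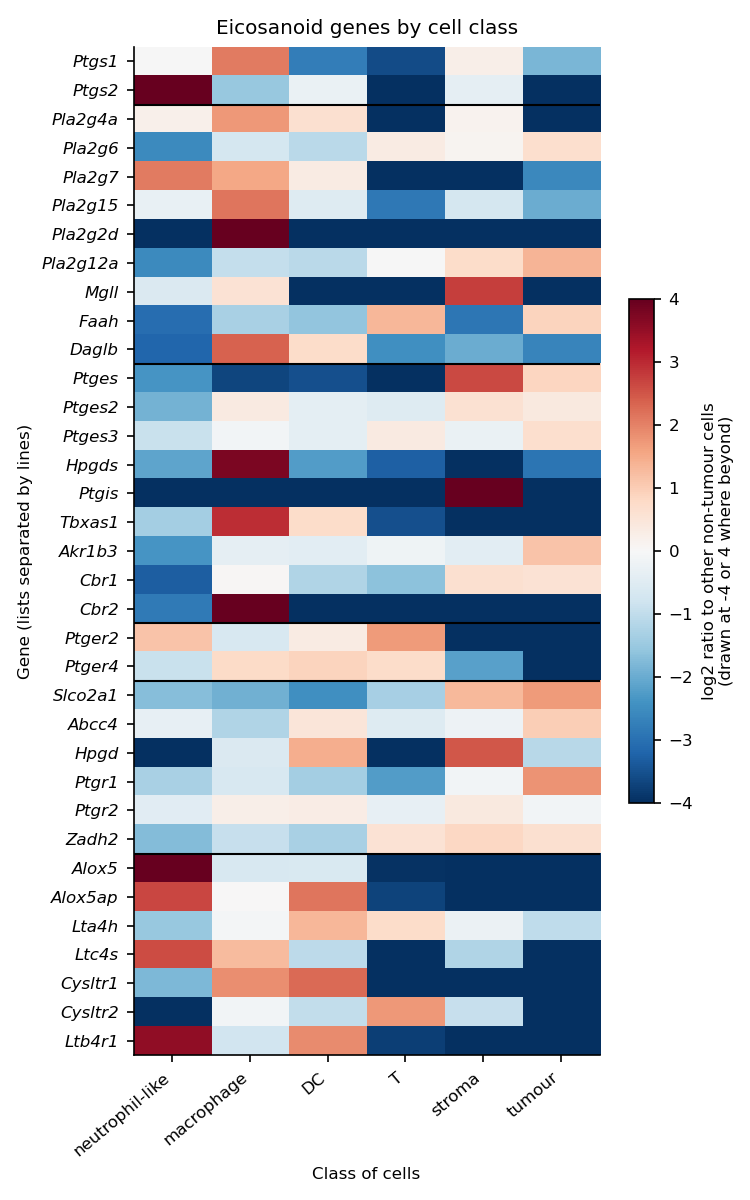
Log2 ratio of each class to the other non-tumour cells (for tumour, to all non-tumour cells) for the cyclooxygenases and 5 gene lists, separated by lines in the order release, synthases, receptors, transport and breakdown, leukotrienes. Ratios beyond −4 or 4 are drawn at that limit. Hpgds, Tbxas1 and Cbr2 are red under macrophage, Ptgis under stroma and Alox5 under neutrophil-like.

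The receptor genes Ptger2 and Ptger4 had most of their UMIs in immune cells. Immune cells held 60 of 62 Ptger2 UMIs and 188 of 203 Ptger4 UMIs, and tumour cells, with 62522017 UMIs in all, held 1 and 6. In the fibroblast cluster Ptger2 had 0 UMIs, which allows up to 2.67 CPM, and Ptger4 had 2, or 1.78 CPM (0.215 to 6.43). Fibroblast&Endothelial_2, which also carried Ptges, had 4 Ptger4 UMIs, or 12.4 CPM (3.38 to 31.8). Its interval overlapped that of Macrophage_1, at 14.1 CPM (8.59 to 21.7). Tumour cells and the fibroblast cluster, which held most Ptges UMIs, were therefore nearly without transcripts of these receptors.

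Ptger2 was sparse. T cells had 25 UMIs, or 12.2 CPM (7.90 to 18.0), against 3.75 CPM in other non-tumour cells, a ratio of 3.25 (1.87 to 5.57). CD4_T, a cluster of 47 cells, stood at 24.7 CPM (6.73 to 63.3) from 4 UMIs, CD8_T_2 at 23.0 CPM (10.5 to 43.6) and CD8_T_1 at 8.03 CPM (4.15 to 14.0). The ratio of CD8_T_2 to CD8_T_1 was 2.86 (1.06 to 7.40). Neutrophil-like cells had 9 UMIs, or 10.6 CPM (4.85 to 20.1), a ratio of 2.20 whose interval (0.955 to 4.51) includes 1, and macrophages had 3.85 CPM (2.15 to 6.34). Among clusters of at least 50 cells, those next to each other in the order of Ptger2 levels, from CD8_T_2 through MDSC_1 (15.75 CPM, 4.29 to 40.3) to CD8_T_1 and DC (6.47 CPM, 2.37 to 14.1), had overlapping intervals.

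Ptger4 was found across macrophages, the DC cluster and T cells at levels with overlapping intervals, 23.3 CPM (18.8 to 28.6), 29.1 CPM (19.2 to 42.4) and 25.4 CPM (19.0 to 33.3). Among macrophages it was 38.6 CPM (24.5 to 58.0) in Macrophage_3, 27.4 CPM (20.2 to 36.4) in Macrophage_2 and 14.1 CPM (8.59 to 21.7) in Macrophage_1. Macrophage_4 had 0 UMIs, which allows up to 22.7 CPM. Macrophage_1, highest in Ptgs1, thus had 0.364 times the Ptger4 of Macrophage_3 (0.190 to 0.693). T cell transcripts were also present in these clusters. The sum of 7 T cell markers was 955.9 CPM in Macrophage_2, 366 CPM in Macrophage_3 and 86.5 CPM in Macrophage_1. It was 170 CPM in DC and 2816 CPM in CD8_T_1. The part of T cell RNA in the Ptger2 and Ptger4 levels of macrophages and DC was not tested. CD4_T had 10 UMIs in 7 cells, or 61.8 CPM (29.6 to 114), and CD8_T_1 had 21.4 CPM (14.6 to 30.2), a ratio of 2.89 (1.26 to 6.02). Neutrophil-like cells had 9.43 CPM (4.07 to 18.6) from 8 UMIs, 0.404 times the macrophage level (0.169 to 0.831). The genes nearest to Ptger4 were Dock10 (r = 0.881), Il2rg (0.858), Kcnab2 (0.855), Zc3h13 (0.851) and Dgkz (0.850), of which 0 were shared with Spearman's correlation and 1 over the non-tumour clusters.

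Of the other prostanoid receptors in the matrix, none reached 50 UMIs. Tbxa2r, the thromboxane receptor, had 20 UMIs in T cells (9.76 CPM, 5.96 to 15.1), Ptgir, the prostacyclin receptor, had 15 in macrophages and 10 in DC, and all 8 non-tumour UMIs of Ptgfr, the prostaglandin F receptor, lay in stroma. Genes known to respond to cyclic AMP were mixed. In T cells 4 of 10 were higher and 2 lower (median log2 ratio 0.20), beside 11.2% and 27.6% of all genes (median −0.06), among them the nuclear receptor gene Nr4a2 at 249 CPM (ratio 4.81) and the phosphodiesterase gene Pde4d at 24.9 CPM (5.43). In neutrophil-like cells 5 were higher and 3 lower (median 0.76), beside 10.9% and 49.7% of all genes (median −0.90), with Nr4a1 at 442 CPM (7.59) and Pde4b at 312 CPM (9.42), and Nr4a2 was 0.153 times the others.

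Hpgd, which ends the signal, was highest in the fibroblast cluster. Fibroblast&Endothelial_1 had 28 UMIs, or 24.9 CPM (16.6 to 36.0), in 20 of 96 cells, followed by Macrophage_3 at 15.1 CPM (6.91 to 28.7) and DC at 12.9 CPM (6.69 to 22.6), whose intervals overlap with it. Macrophage_3 had 13.2 times the level of Macrophage_2 (2.74 to 126). Tumour cells held 158 of the 221 UMIs, at 2.53 CPM (2.15 to 2.95), 0.467 times the non-tumour level (0.347 to 0.636). Neutrophil-like cells and T cells had 0 UMIs, which allows up to 3.54 and 1.46 CPM. Of the other genes of transport and breakdown, Ptgr1, a prostaglandin reductase, was 166 CPM in tumour cells (ratio 3.50), and Slco2a1, the prostaglandin transporter, was 35.9 CPM in tumour cells (3.27) and 22.8 CPM in stroma (2.45). These were the 2 of 6 genes of this list that were higher in tumour cells, where Hpgd was the 1 that was lower (13.0% and 25.2% of all genes). In stroma Slco2a1 and Hpgd were the 2 of 6 that were higher and 0 were lower (14.2% and 20.9% of all genes).

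Read over the 6 genes, each class had its own combination. Neutrophil-like cells were at least 2-fold higher in Ptgs2 and Ptger2 and at least 2-fold lower in Ptges, where 10.9% of all genes were higher and 49.7% lower. Their Ptges ratio rests on 2 UMIs, with an interval of 0.0235 to 0.722 that does not exclude a difference smaller than 2-fold. Of the 130 Ptges UMIs in the comparison group, stroma held 62 and the Unknown cluster 55. Macrophages, T cells and the DC cluster were lower in Ptges too, so this call does not set neutrophil-like cells apart. The Ptger2 ratio of neutrophil-like cells rests on 9 UMIs, with an interval of 0.955 to 4.51 that does not exclude equal levels. Hpgd counted as lower there from 0 UMIs, whose limit of 3.54 CPM is not 2-fold below the 5.83 CPM of the other cells. Macrophages were higher in Ptgs1 and lower in Ptgs2 and Ptges (8.16% and 14.7% of all genes). Stroma was higher in Ptges and Hpgd and lower in Ptger2 and Ptger4 (14.2% and 20.9%). T cells, where 11.2% of all genes were higher and 27.6% lower, were higher in Ptger2 and lower in Ptgs1, Ptgs2, Ptges and Hpgd, and the DC cluster, where 4.18% of all genes were higher and 22.9% lower, was higher in Hpgd and lower in Ptgs1 and Ptges. Tumour cells were at least 2-fold lower than non-tumour cells in 5 of 6, with Ptges the exception (25.2% of all genes were lower). The low ratio of Ptgs2 in macrophages and in stroma depends on the neutrophil-like cells in the comparison group. Without them, stroma stood at 2.52 times the other non-tumour cells. Macrophages had 84.9 CPM (76.0 to 94.5). All non-tumour cells outside the neutrophil-like class, macrophages included, had 73.07 CPM, so macrophages were not low among them. With 6 genes, these counts are no evidence that the set differs from other genes.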

How the data were processed

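Per the submitters' processing notes, the authors used Cell Ranger 2.1.1 on 10x Genomics single cell 3′ libraries. Their build, cell filters, strand setting and clustering method are unstated (not given in the sources used here). The deposited values are natural log values, ln(1 + 10000 × UMIs over the cell's total), and the deposited cluster names were used as given. UMIs were recovered from them: 100.0% of values above 0 were whole within 0.001, and the UMIs summed to the recovered depth in 5482 of 5482 cells. For the IgG library, 105 genes had complete rows to analyse, and 0 of the 6 members were among them.

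UMIs were summed per cluster and scaled to CPM, with exact Poisson intervals. Shares have exact Clopper-Pearson intervals, and ratios have exact conditional intervals, all at 95%. Every sum of 0 was given the limit of 3 UMIs. No p-value was computed, because each group has 1 library and the clusters were made from the same cells. Median log2 ratios of lists add 0.5 UMI to each sum. A gene counted as higher or lower at a ratio of at least 2 or at most 0.5, with at least 50 UMIs over both sides. Classes are MDSC_1 to MDSC_4, the Macrophage clusters, DC, the CD4_T and CD8_T clusters, the Fibroblast&Endothelial clusters and the Tumor clusters. MDSC_5 and CD3_T stood alone. MDSC_5 had 1119 CPM of neutrophil markers beside 5985 CPM of hepatoma markers. CD3_T had 2310 CPM of T cell markers beside 4456 CPM of natural killer cell markers. Values for T cells therefore leave out the 138 cells of CD3_T, although these carried T cell markers.

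Named genes are the members, list genes past the fold, highest first, and for each member with at least 100 non-tumour UMIs the 5 genes most alike, of which 1 is not reported here. Of 70 listed genes, 64 were in the matrix. Receptor genes under 50 UMIs, Ptges3, and list genes given in classes where they missed the fold were named after their values were seen. Members and lists were chosen with earlier results of these data known. Doublet prediction in scanpy 1.11.5 marked 3 cells (0.0547%), too few to have worked, so no cell was removed. Promoters came from RefSeq in GRCm38.p6, and 6 of 6 members matched. Python 3.11.15, numpy 2.4.6, scipy 1.17.1, pandas 2.3.3 and matplotlib 3.10.9 were used. The ratio intervals, the fold call and the thinned shares were tested on simulated data, and the other steps were not. Alternatives changed the UMI minimum per cell, the scaling, the thinning depth, the fold, the comparison group and the clusters included.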

Additional observations from a re-analysis of the deposited data

How the results depend on the processing

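No paired analysis was possible because each group has 1 library. Levels in each gene's highest cluster moved by less than their intervals in 18 of 18 alternatives. Of 394 alternative class ratios, 324 stayed within the interval, 64 moved and 6 changed direction.

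The Ptgs2 ratio of neutrophil-like cells was 18.51 without ribosomal and mitochondrial UMIs in the scale, 20 without MDSC_5, Unknown and CD3_T, 21.14 without MDSC_1 and 25.35 without MDSC_2. The Ptgs2 ratio of DC turned from 0.83 to 1.042 and 1.896 in cells of at least 1000 and 2000 UMIs, and that of stroma from 0.78 to 1.804 at 2000 UMIs and 2.516 without neutrophil-like cells; these settings take shallow neutrophil-like cells out of the comparison group. The Ptgs1 ratio of macrophages was 3.231 as a mean over cells, 5.973 against other immune cells and 3.15 without Macrophage_1. The Ptges ratio of tumour cells was 3.527 as a mean over cells, 2.441 without the 5% highest doublet scores, 2.7 without MDSC_5, Unknown and CD3_T and 1.482 without Tumor_1; the cause was not tested. For Ptges, neutrophil-like cells were 1.377 times other immune cells and 0.0 at 2000 UMIs, values that rest on 2 UMIs. The Hpgd ratio of stroma was 0.0 without Fibroblast&Endothelial_1, which holds all of that class's UMIs. The Ptger2 ratio of T cells was 6.258 without CD8_T_1, and for Ptger4 it was 1.193 against other immune cells and 2.39 without CD8_T_1.

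Of 64 listed genes, the number higher in DC was 6, with 12 at a fold of 1.5 and 3 at a fold of 3. In T cells it was 7, with 4 at a fold of 3 and 4 at a minimum of 100 UMIs. In stroma it was 7, with 11 at a fold of 1.5. In tumour cells it was 5, with 12 at a fold of 1.5 and 3 at a fold of 3.

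The planned run without predicted doublets was not made, since 3 cells were marked; leaving out the 239 cells with the highest 5% of scores took its place, chosen after seeing the data. Depth limits Ptger2, Ptger4 and Hpgd most among the 6 genes, with 62, 203 and 221 UMIs in all.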

Other observations

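Beside Ptgs2, the matrix holds the long noncoding RNA genes Ptgs2os and Ptgs2os2, its neighbours in RefSeq. Ptgs2os2 had 109 UMIs, at 113 CPM (67.2 to 179) in MDSC_4, 82.7 CPM (51.2 to 126) in MDSC_1, 66.4 CPM (37.2 to 110) in MDSC_3 and 52.5 CPM (26.2 to 93.9) in MDSC_2. It was 12.9 CPM (6.69 to 22.6) in DC and 1.78 CPM (0.215 to 6.43) in Fibroblast&Endothelial_1, the cluster that came next to the neutrophil-like cells in Ptgs2. Ptgs2os had 34 UMIs, 7 of them in MDSC_1 (27.6 CPM, 11.1 to 56.8) and 6 in Fibroblast&Endothelial_1 (5.34 CPM, 1.96 to 11.6). In RefSeq neither gene shares a base with Ptgs2.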
